A study of Mus musculus with 9 samples.

Results

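The 45 genes described here encode proteins of the centromere and the kinetochore, and were followed in MyC-CaP cells, a mouse prostate cancer line derived from a tumor driven by a MYC transgene. They were chosen by name from a table of 15552 protein-coding genes, all 45 were found in it, and all 45 passed the filter on low counts that left 11373 genes to test. RNA was collected at 0, 12 and 24 h, with 3 libraries per time point labelled as biological replicates, and the cells had been plated in triplicate wells. All 9 libraries carried the label NRG1-treated. The cells of every group were first starved without serum and calcium for 6 to 12 h, and NRG1, a recombinant protein that binds HER3, was then given at 15 ng/mL for the stated time, so that the 0 h cells were starved only. The study asked how MyC-CaP cells respond to a known HER3 ligand over time. Libraries kept without NRG1 for 12 or 24 h were not analysed here, so time with NRG1 and time without serum and calcium cannot be told apart in any comparison with 0 h. The 9 libraries come from 1 cell line, and the p-values measure the spread between its cultures.

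A kinetochore is the protein structure that ties a chromosome to spindle microtubules. At its base, nucleosomes with the histone H3 variant CENP-A mark the centromere, and a set of proteins named the constitutive centromere-associated network (CCAN) sits on them throughout the cell cycle. The outer kinetochore is assembled on this base as cells enter mitosis. Its KMN network binds microtubules, its Ska complex holds on to their shrinking ends, and its fibrous corona carries motor proteins and checkpoint proteins. Many of these genes are transcribed mainly late in the cell cycle, from promoters in which a CHR element (cell cycle genes homology region) and CCAAT boxes are known to recruit cell cycle regulators. The 45 genes were divided by role into 20 inner centromere genes (5 for CENP-A deposition and centromeric DNA, 15 for the CCAN), 19 outer kinetochore genes (10 of the KMN network, 3 of the Ska complex, 6 of the corona) and 6 others (3 of the chromosomal passenger complex, 2 shugoshins and Cenpj). Cenpj has a centromere name but encodes a protein of the centrioles.

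Total counts per library ranged from 28467089 to 39239760. The replicates of a time point differed by more than counting error in each of 9 pairs, with chi-square values per degree of freedom of 3.75 to 10.1, so all 9 libraries were counted as separate samples. Levels are given as CPM, which are counts scaled to a common library total, after scaling of the libraries by TMM. Of the epithelial keratins, Krt19 lay between 80.2 and 144 CPM and Krt8 between 17.3 and 26.2 CPM, while Krt18 had 6 to 17 counts per library (0.203 to 0.491 CPM). The defining epithelial genes Epcam, Cldn7 and Cdh1 were close to absent, with at most 3, 3 and 4 counts in any library, so the label of epithelial-like cells rests here on Krt19 and Krt8. Of 6 fibroblast markers found, the summed level stayed between 15.3 and 18.01 CPM at all times and was nearly all Pdgfra. The 6 leukocyte markers summed to 0.390 to 1.11 CPM, and the 5 endothelial markers to 0.163 to 0.611 CPM, and 0 of these markers except Cd68 exceeded 12 counts in a library.

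Centromere and kinetochore genes rose together by modest amounts. At 12 h, 34 of the 45 genes were higher than at 0 h and 0 were lower at an adjusted p of at most 0.05 (edgeR quasi-likelihood test, Benjamini-Hochberg adjustment over all 11373 genes), against 13.6% of all genes tested that passed upwards and 11.9% that passed downwards. The median log2 fold change over the 45 genes was 0.39, a fold of 1.31, whereas the median over all genes tested was -0.0028. At 24 h, 39 of 45 passed upwards and 0 downwards, against 9.67% and 7.76% of all genes, and the median was 0.53, a fold of 1.45, beside -0.0065 over all genes. Every gene that passed at 12 h passed at 24 h as well. Cenpm, Cenpp, Cenpt, Cenpw and Dsn1 passed at 24 h only, and Cenpb, Cenpo, Cenpu, Cenpx, Zw10 and Cenpj passed at neither time. The estimate was above 0 in 44 of the 45 genes at each time, against 49.1% of all genes at 12 h and 47.9% at 24 h. In a test of all 3 time points at once 39 genes passed, against 27.4% of all genes. Both comparisons with 0 h use the same 3 libraries at 0 h. In RNA from a whole culture, a larger share of cells late in the cell cycle and more RNA per cell cannot be told apart.

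The size of these changes lay near the threshold of 1.5-fold used in the study. With that fold required beside the adjusted p, 4 genes were called at 12 h (Cenpl, Cenps, Ndc80 and Incenp), against 1.34% of all genes called upwards, and 16 at 24 h, against 1.68%. The 16 were Oip5, Cenph, Cenpi, Cenpl, Knl1, Nsl1, Ndc80, Nuf2, Spc25, Ska1, Ska3, Cenpf, Kntc1, Spdl1, Incenp and Birc5. No fold exceeded 1.59 at 12 h or 1.67 at 24 h. At 24 h, 23 of the 45 genes had a fold between 1.4 and 1.6, on either side of the threshold, and at 12 h 17 genes did. A test whose null is the whole interval of changes smaller than 1.5-fold (glmTreat in edgeR) called 0 of the 45 genes at either time. Its unadjusted p was below 0.05 for 2 of them at 12 h and 4 at 24 h. Because the null is an interval, a low p here does not by itself place a fold above 1.5. Over all genes tested, the same test called only 4 at 12 h and 6 at 24 h, so 0 calls do not set the 45 genes apart. The first library at 0 h had the lowest level of its time point in 29 of the 45 genes, and without it 36 genes passed at 24 h and 6 were called (Oip5, Cenpl, Nsl1, Ndc80, Spdl1 and Incenp). At 12 h, 12 genes were called without the third library at 0 h, 8 without the first and 10 without the third library at 12 h. When libraries were compared by the range of their values instead, all 3 libraries at 12 h lay above all 3 at 0 h for 35 genes, against 19.9% of all genes, and at 24 h this held for 41, against 17.6%.

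**Figure D1:**
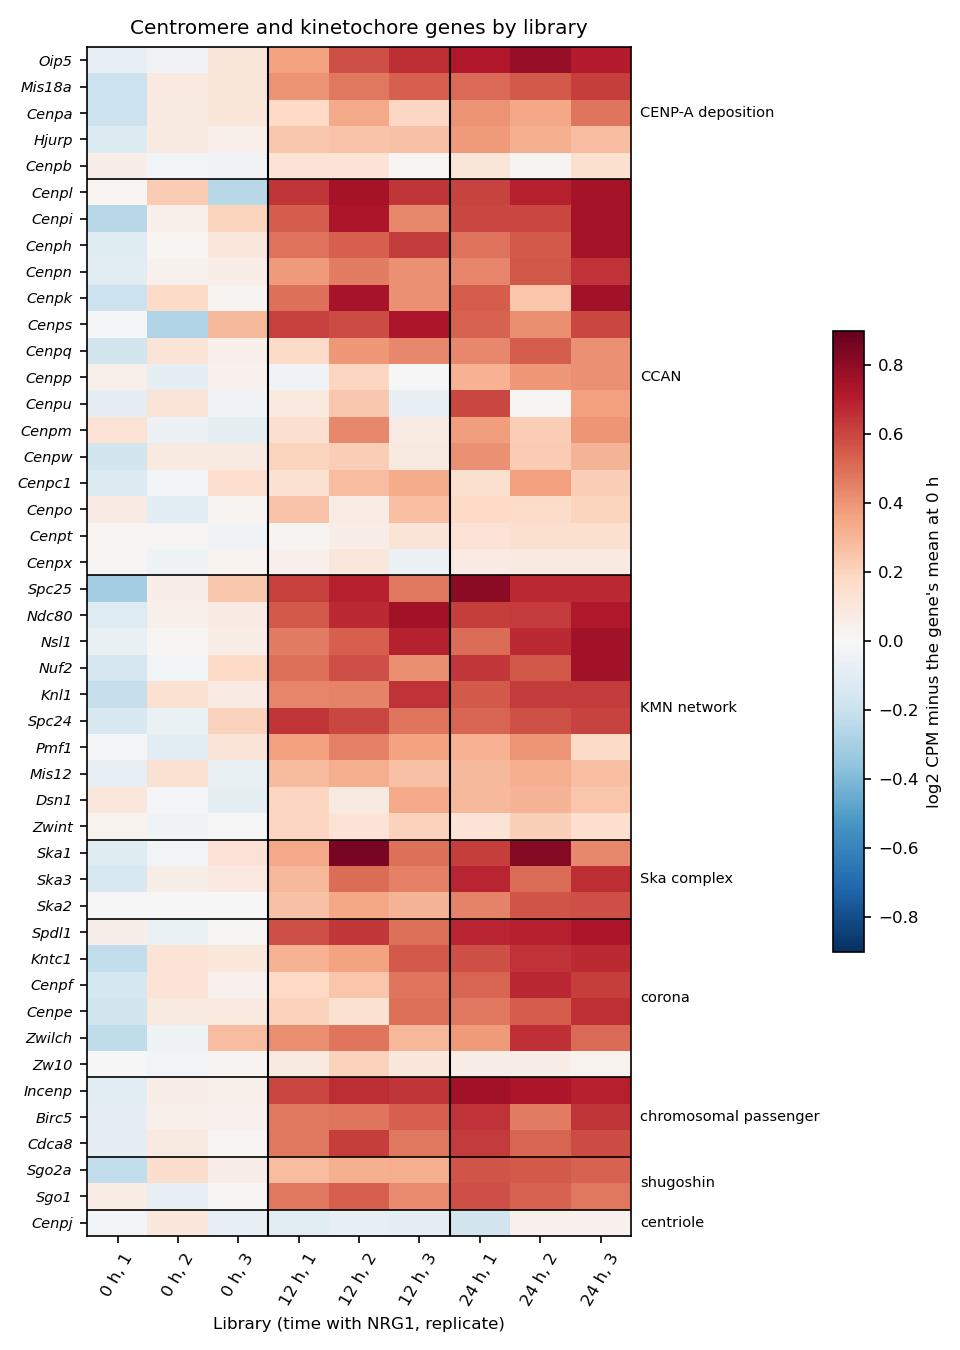
Color gives each gene's log2 CPM minus its own mean over the 3 libraries at 0 h, with 1 row per gene grouped by role and 1 column per library (time with NRG1, replicate). The columns at 12 and 24 h are red for most rows, while Cenpb, Cenpx, Zw10 and Cenpj stay near 0, and the first library at 0 h is the bluest of its time point.

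Because these genes moved together, their promoters were read from RefSeq (GRCm38.p6, 250 bases before to 50 bases after a transcription start), in which 40 of the 45 genes had a window and Zwilch, Nsl1, Incenp, Spc24 and Ska1 had none. The motifs searched on both strands were the CHR element TTTGAA, the CCAAT box CCAAT and the E2F sites TTTCCCGC and TTTGGCGC. A CHR element was found in 16 of 40 promoters (40%), against 14.3% of 9089 tested genes with a window and 20.2% of all 27025 genes in the promoter collection. CCAAT boxes were found in 26 of 40 (65%), against 43.8% of tested genes, and E2F sites in 5 of 40 (12.5%), against 3.61%. Both a CHR element and a CCAAT box were found in 12 of 40 (30%), against 7.196%. In Cdca8, Kntc1 and Cenpw the CHR element and a CCAAT box share 1 base. A match is a run of letters and was not tested for binding.

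The following promoters are those of the 6 genes called at 24 h that held both elements, and of Zw10, which held a CHR element and did not pass at either time. They read from 5′ to 3′ on the strand of the gene, with capitals for every match to the motifs above on either strand, so that ATTGG is a CCAAT box and TTCAAA a CHR element of the opposite strand. The other capitals, in Cenpl alone, are 2 E2F sites. 
Oip5 (chr2:119618456-119618755, minus strand): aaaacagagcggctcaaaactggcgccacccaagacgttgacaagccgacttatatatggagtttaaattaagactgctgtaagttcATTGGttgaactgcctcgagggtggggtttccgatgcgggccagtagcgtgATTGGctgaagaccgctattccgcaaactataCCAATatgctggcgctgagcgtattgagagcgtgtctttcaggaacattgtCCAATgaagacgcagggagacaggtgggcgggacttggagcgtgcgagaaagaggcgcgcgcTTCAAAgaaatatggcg
Cenpl (chr1:161070517-161070816, plus strand): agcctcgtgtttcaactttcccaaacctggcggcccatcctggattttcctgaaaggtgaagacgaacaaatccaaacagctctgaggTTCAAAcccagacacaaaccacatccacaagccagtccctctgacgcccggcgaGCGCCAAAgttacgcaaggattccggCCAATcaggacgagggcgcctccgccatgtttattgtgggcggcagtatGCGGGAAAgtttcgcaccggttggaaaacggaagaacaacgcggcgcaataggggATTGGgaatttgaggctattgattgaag
Spc25 (chr2:69206164-69206463, minus strand): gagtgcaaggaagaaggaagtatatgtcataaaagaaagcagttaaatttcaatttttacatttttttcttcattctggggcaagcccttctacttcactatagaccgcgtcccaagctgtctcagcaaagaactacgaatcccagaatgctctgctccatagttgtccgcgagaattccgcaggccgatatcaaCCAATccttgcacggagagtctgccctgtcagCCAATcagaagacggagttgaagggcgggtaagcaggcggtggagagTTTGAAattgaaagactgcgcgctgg
Cenpf (chr1:189688037-189688336, minus strand): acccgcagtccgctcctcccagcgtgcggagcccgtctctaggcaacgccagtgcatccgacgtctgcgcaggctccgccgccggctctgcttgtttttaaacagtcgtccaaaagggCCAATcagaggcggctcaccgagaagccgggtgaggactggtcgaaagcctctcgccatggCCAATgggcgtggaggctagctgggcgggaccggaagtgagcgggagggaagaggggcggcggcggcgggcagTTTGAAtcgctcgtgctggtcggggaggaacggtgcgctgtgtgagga
Kntc1 (chr5:123749476-123749775, plus strand): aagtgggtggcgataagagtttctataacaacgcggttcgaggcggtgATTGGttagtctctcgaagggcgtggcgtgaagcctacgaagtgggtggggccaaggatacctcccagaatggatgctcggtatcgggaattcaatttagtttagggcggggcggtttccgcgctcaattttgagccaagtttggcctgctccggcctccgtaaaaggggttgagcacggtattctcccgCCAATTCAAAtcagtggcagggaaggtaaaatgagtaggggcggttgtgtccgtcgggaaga
Spdl1 (chr11:34833592-34833891, minus strand): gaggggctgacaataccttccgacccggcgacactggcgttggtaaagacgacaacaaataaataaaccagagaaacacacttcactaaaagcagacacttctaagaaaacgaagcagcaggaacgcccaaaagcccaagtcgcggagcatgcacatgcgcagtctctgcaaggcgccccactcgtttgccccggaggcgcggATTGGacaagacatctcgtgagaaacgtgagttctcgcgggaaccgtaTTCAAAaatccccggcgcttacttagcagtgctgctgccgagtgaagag
Zw10 (chr9:49055331-49055630, plus strand): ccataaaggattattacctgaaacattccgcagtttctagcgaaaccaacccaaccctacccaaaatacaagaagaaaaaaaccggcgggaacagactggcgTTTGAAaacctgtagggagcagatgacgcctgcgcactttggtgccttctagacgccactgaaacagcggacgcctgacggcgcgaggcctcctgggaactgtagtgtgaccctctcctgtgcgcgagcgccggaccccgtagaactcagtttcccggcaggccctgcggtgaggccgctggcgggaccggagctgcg

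In Cenpf, Kntc1 and Spdl1 the CHR element lay within 10 bases of the transcription start, in Oip5 and Spc25 it lay 34 and 25 bases after it, and in Cenpl and Zw10 it lay 162 and 148 bases before it. Among the 16 genes with a CHR element, 13 had it within 50 bases of the start (81.3%), against 341 of 1297 tested genes with the element (26.3%), a distance chosen after the matches had been seen. The other 3 were Cenpl, Pmf1 and Zw10. Of the 16 genes with a CHR element, 15 passed and 9 were called at 24 h, and their median log2 fold change was 0.60. Of the 24 genes without it, 19 passed and 4 were called, with a median of 0.42. The 2 groups overlapped widely, from 0.05 to 0.74 with the element and from -0.03 to 0.64 without it, and the difference between them was not tested. For the CCAAT box the medians at 24 h were 0.53 in the 26 genes with it and 0.45 in the 14 without. At 12 h they were 0.314 and 0.312. The E2F sites went the other way, with a median at 24 h of 0.34 in the 5 genes with a site and 0.53 in the 35 without. These differences were not tested either.

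Of the 5 genes for CENP-A deposition and centromeric DNA, 4 rose at both times. The median log2 fold change was 0.25 at 12 h and 0.40 at 24 h. Oip5 encodes a subunit of the Mis18 complex, which readies centromeres for new CENP-A, and is ENSMUSG00000072980.3, chr2:119609512-119618469 (all coordinates on GRCm38). Its level was 7.17, 7.37 and 8.13 CPM at 0 h, 9.69, 11.3 and 12.0 CPM at 12 h and 12.4, 13.0 and 12.4 CPM at 24 h. All 6 libraries with NRG1 lay above all 3 without it, and the 24 h libraries lay above those at 12 h. The change was 1.45-fold (log2 0.54 ± 0.095 SE, adjusted p = 0.000583) at 12 h and 1.67-fold (log2 0.74 ± 0.094 SE, adjusted p = 3.13e-05) at 24 h, the largest of the 45 at 24 h. On the other strand, 9.67% of the exonic bases of Oip5 overlap Nusap1, a gene for a spindle protein, and whether reads were counted by strand was not stated. Mis18a, its partner in the same complex, changed by log2 0.46 (adjusted p = 0.000488) at 12 h and log2 0.55 (adjusted p = 0.000106) at 24 h. Hjurp, the chaperone that brings CENP-A to the centromere, changed by log2 0.25 (adjusted p = 0.00199) and log2 0.32 (adjusted p = 0.000315). Cenpa itself, the histone variant, rose by log2 0.23 (adjusted p = 0.0187) and log2 0.40 (adjusted p = 0.000437). Cenpb encodes a protein that binds a short motif in centromeric satellite DNA, and is ENSMUSG00000068267.5, chr2:131175182-131180067. Its level was 138, 129 and 129 CPM at 0 h, 144, 144 and 133 CPM at 12 h and 142, 134 and 146 CPM at 24 h. The libraries of the 3 time points overlapped, with 1.06-fold (log2 0.09 ± 0.044 SE, adjusted p = 0.153) at 12 h and 1.07-fold (log2 0.09 ± 0.044 SE, adjusted p = 0.169) at 24 h.

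Of the 15 CCAN genes, 8 rose at 12 h and 12 at 24 h, with median log2 fold changes of 0.24 and 0.38. Cenpl, whose product binds the CENP-A nucleosome together with that of Cenpn, is ENSMUSG00000026708.16, chr1:161070713-161086724. Its level was 5.96, 6.89 and 4.94 CPM at 0 h, 9.22, 9.94 and 9.20 CPM at 12 h and 8.97, 9.57 and 9.91 CPM at 24 h. The libraries at 12 and 24 h overlapped each other, and all lay above those at 0 h. The change was 1.59-fold (log2 0.67 ± 0.11 SE, adjusted p = 0.000335) at 12 h and 1.597-fold (log2 0.68 ± 0.11 SE, adjusted p = 0.000400) at 24 h. Cenpn changed by log2 0.42 (adjusted p = 0.00254) and log2 0.55 (adjusted p = 0.000312).

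Cenph and Cenpi belong to the subcomplex of CENP-H, CENP-I, CENP-K and CENP-M, a central part of the CCAN. Cenph (ENSMUSG00000045273.8, chr13:100759674-100775899) lay at 8.34, 9.08 and 9.58 CPM at 0 h, 12.7, 13.1 and 13.96 CPM at 12 h and 12.6, 13.2 and 15.1 CPM at 24 h. The 12 h and 24 h libraries lay above 0 h and overlapped each other. The change of Cenph was 1.47-fold (log2 0.55 ± 0.090 SE, adjusted p = 0.000269) at 12 h and 1.52-fold (log2 0.60 ± 0.089 SE, adjusted p = 0.000145) at 24 h. Cenpi (ENSMUSG00000031262.12, chrX:134308084-134362639) lay at 11.1, 13.6 and 15.2 CPM at 0 h, 19.3, 21.9 and 17.8 CPM at 12 h and 20.1, 20.0 and 22.2 CPM at 24 h. It had the same order, with the lowest value in the first library at 0 h. Its change was 1.47-fold (log2 0.56 ± 0.099 SE, adjusted p = 0.000583) at 12 h and 1.56-fold (log2 0.64 ± 0.098 SE, adjusted p = 0.000209) at 24 h. Cenpk changed by log2 0.55 (adjusted p = 0.0324) and log2 0.53 (adjusted p = 0.0487). Cenpm changed by log2 0.34 (adjusted p = 0.0287) at 24 h.

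CENP-S and CENP-X form a histone-fold complex with CENP-T and CENP-W, and also act in DNA crosslink repair. Cenps (ENSMUSG00000073705.10, chr4:149127121-149137629) lay at 3.27, 2.74 and 4.07 CPM at 0 h, 5.11, 5.02 and 5.51 CPM at 12 h and 4.81, 4.46 and 5.04 CPM at 24 h. It was the only gene called at 12 h and not at 24 h, although its libraries at both times lay above 0 h. The change was 1.56-fold (log2 0.64 ± 0.14 SE, adjusted p = 0.00315) at 12 h and 1.43-fold (log2 0.51 ± 0.14 SE, adjusted p = 0.0187) at 24 h. Cenpx (ENSMUSG00000025144.17, chr11:120710942-120713738) lay at 22.5, 21.6 and 22.8 CPM at 0 h, 23.0, 24.0 and 21.5 CPM at 12 h and 23.4, 23.6 and 23.6 CPM at 24 h. The values at 12 h overlapped those at 0 h, and the narrow range at 24 h lay just above it. Neither comparison passed, with 1.03-fold (log2 0.04 ± 0.059 SE, adjusted p = 0.703) at 12 h and 1.06-fold (log2 0.08 ± 0.058 SE, adjusted p = 0.403) at 24 h, the smallest 24 h difference of the CCAN. Cenpt, whose product links the CCAN to the Ndc80 complex, was 1.10-fold at 24 h (log2 0.14) and Cenpw 1.24-fold (log2 0.31), and both passed then.

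The subcomplex of CENP-O, CENP-P, CENP-Q and CENP-U gave mixed results. Cenpq passed at both times, by log2 0.32 (adjusted p = 0.0134) and log2 0.45 (adjusted p = 0.00164), and Cenpp at 24 h only, by log2 0.38 (adjusted p = 0.0176). Cenpo and Cenpu did not pass, with log2 fold changes at 24 h of 0.19 and 0.34. Cenpo, Cenpp and Cenpu share 22.5%, 12.6% and 26.7% of their exonic bases with genes on the opposite strand (Adcy3 and Ptrhd1, Aspn and Ippk, and Primpol), so their counts are uncertain. Cenpc1, whose product binds CENP-A nucleosomes and the Mis12 complex, changed by log2 0.24 (adjusted p = 0.0220) at 12 h and log2 0.24 (adjusted p = 0.0296) at 24 h, with values that overlapped 0 h at both times.

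In the KMN network, which holds the microtubule-binding sites of the kinetochore, 9 of 10 genes rose at 12 h and all 10 at 24 h, with median log2 fold changes of 0.50 and 0.58. Ndc80 encodes the subunit that contacts the microtubule, and is ENSMUSG00000024056.10, chr17:71496100-71526857. Its level was 24.95, 27.96 and 28.5 CPM at 0 h, 39.7, 43.3 and 45.8 CPM at 12 h and 41.8, 42.0 and 44.8 CPM at 24 h. The 12 and 24 h libraries overlapped each other and lay above 0 h. The change was 1.58-fold (log2 0.66 ± 0.063 SE, adjusted p = 2.33e-06) at 12 h and 1.58-fold (log2 0.66 ± 0.063 SE, adjusted p = 2.05e-06) at 24 h. Nuf2, its partner in the microtubule-binding head, is ENSMUSG00000026683.14, chr1:169497934-169531464. Its level was 13.7, 15.0 and 17.3 CPM at 0 h, 21.6, 22.8 and 20.4 CPM at 12 h and 23.8, 22.5 and 25.8 CPM at 24 h. Those values stood apart from 0 h at both times, with 1.403-fold (log2 0.49 ± 0.083 SE, adjusted p = 0.000385) at 12 h and 1.56-fold (log2 0.64 ± 0.082 SE, adjusted p = 3.27e-05) at 24 h. Spc25, in the part of the complex that docks on the inner kinetochore, is ENSMUSG00000005233.16, chr2:69193895-69206194. Its level was 7.17, 9.29 and 10.5 CPM at 0 h, 13.7, 14.4 and 12.4 CPM at 12 h and 15.6, 14.2 and 14.2 CPM at 24 h. The 3 libraries at 0 h were spread widely, the first the lowest, and all lay below the others. The change was 1.49-fold (log2 0.58 ± 0.11 SE, adjusted p = 0.00106) at 12 h and 1.61-fold (log2 0.69 ± 0.11 SE, adjusted p = 0.000272) at 24 h. Spc24, the partner of Spc25, changed by log2 0.57 (adjusted p = 7.17e-05) and log2 0.56 (adjusted p = 0.000106), so that all 4 subunits of the Ndc80 complex passed at both times.

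The 4 subunits of the Mis12 complex, which links the CCAN to the rest of the network, had estimates that spread more widely, from log2 0.28 to 0.65 at 24 h. Nsl1 (ENSMUSG00000062510.12, chr1:191063012-191086474) lay at 5.68, 6.00 and 6.22 CPM at 0 h, 8.24, 8.68 and 9.66 CPM at 12 h and 8.45, 9.54 and 10.1 CPM at 24 h. Its libraries at both later times lay above 0 h, with 1.48-fold (log2 0.57 ± 0.10 SE, adjusted p = 0.000690) at 12 h and 1.57-fold (log2 0.65 ± 0.10 SE, adjusted p = 0.000237) at 24 h. Mis12 changed by log2 0.28 (adjusted p = 0.00672) and log2 0.29 (adjusted p = 0.00838), and Pmf1 by log2 0.39 (adjusted p = 0.000766) and log2 0.29 (adjusted p = 0.00927). Dsn1 passed at 24 h only, by log2 0.28 (adjusted p = 0.0197). The differences between subunits were not tested. Knl1, the scaffold on which the checkpoint kinase Bub1 docks, is ENSMUSG00000027326.13, chr2:119047119-119105501. Its level was 20.6, 26.2 and 25.1 CPM at 0 h, 32.4, 32.4 and 37.5 CPM at 12 h and 34.9, 36.9 and 36.9 CPM at 24 h. The first library was the lowest at 0 h, and all libraries with NRG1 lay above the 3 without it. The change was 1.42-fold (log2 0.50 ± 0.078 SE, adjusted p = 0.000185) at 12 h and 1.51-fold (log2 0.59 ± 0.078 SE, adjusted p = 4.38e-05) at 24 h. Zwint, which binds Knl1, is ENSMUSG00000019923.14, chr10:72654845-72674964. Its level was 105, 100.0 and 102 CPM at 0 h, 117, 112 and 118 CPM at 12 h and 111, 118 and 113 CPM at 24 h. The shift was small but wider than the spread at 0 h, with 1.13-fold (log2 0.18 ± 0.039 SE, adjusted p = 0.00341) at 12 h and 1.12-fold (log2 0.16 ± 0.039 SE, adjusted p = 0.00894) at 24 h, the smallest change of the network at both times.

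All 3 genes of the Ska complex, which follows the ends of microtubules with the Ndc80 complex, rose at both times, with median log2 fold changes of 0.41 and 0.61. Ska1 (ENSMUSG00000036223.16, chr18:74195299-74207818) lay at 4.58, 4.87 and 5.43 CPM at 0 h, 6.28, 9.005 and 6.98 CPM at 12 h and 7.63, 8.82 and 6.70 CPM at 24 h. A single library at 12 h and a single one at 24 h stood above the rest, and the lowest value with NRG1 lay above 0 h. The change was 1.49-fold (log2 0.57 ± 0.14 SE, adjusted p = 0.00688) at 12 h and 1.55-fold (log2 0.63 ± 0.14 SE, adjusted p = 0.00484) at 24 h. Ska2 (ENSMUSG00000020492.11, chr11:87109234-87124635) lay at 11.1, 11.1 and 11.1 CPM at 0 h, 13.3, 14.1 and 13.7 CPM at 12 h and 15.1, 16.4 and 16.6 CPM at 24 h. The 3 time points did not overlap, in ascending order with time. Its change was 1.24-fold (log2 0.30 ± 0.073 SE, adjusted p = 0.00540) at 12 h and 1.45-fold (log2 0.54 ± 0.071 SE, adjusted p = 5.11e-05) at 24 h, and 10.1% of its exonic bases overlap Gm11491 on the opposite strand. Ska3 (ENSMUSG00000021965.3, chr14:57806561-57826185) lay at 10.9, 12.5 and 12.8 CPM at 0 h, 14.8, 17.1 and 16.4 CPM at 12 h and 19.4, 17.05 and 19.1 CPM at 24 h. Both later times lay above 0 h and overlapped each other. The change was 1.33-fold (log2 0.41 ± 0.084 SE, adjusted p = 0.00178) at 12 h and 1.53-fold (log2 0.61 ± 0.083 SE, adjusted p = 5.91e-05) at 24 h.

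In the corona, 5 of 6 genes rose at both times, with median log2 fold changes of 0.34 and 0.58. Spdl1 encodes Spindly, the adaptor that brings the motor dynein to kinetochores, and is ENSMUSG00000069910.2, chr11:34809190-34833641. Its level was 14.4, 13.3 and 13.97 CPM at 0 h, 20.8, 21.6 and 19.6 CPM at 12 h and 22.3, 22.6 and 23.0 CPM at 24 h. The libraries of the 3 time points did not overlap. The change was 1.49-fold (log2 0.58 ± 0.065 SE, adjusted p = 8.91e-06) at 12 h and 1.63-fold (log2 0.71 ± 0.064 SE, adjusted p = 1.23e-06) at 24 h, the largest among the 19 outer genes at 24 h. Cenpf, a large coiled-coil protein of the corona, is ENSMUSG00000026605.14, chr1:189640606-189688086. Its level was 46.8, 57.0 and 53.7 CPM at 0 h, 59.4, 62.2 and 73.1 CPM at 12 h and 75.3, 83.8 and 80.7 CPM at 24 h. The 3 time points again stood apart. The change was 1.23-fold (log2 0.30 ± 0.075 SE, adjusted p = 0.00729) at 12 h and 1.52-fold (log2 0.60 ± 0.074 SE, adjusted p = 2.42e-05) at 24 h.

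The complex of Rod, Zw10 and Zwilch recruits Spindly and dynein and keeps the checkpoint on. Kntc1, which encodes Rod, is ENSMUSG00000029414.11, chr5:123749716-123821593. Its level was 22.9, 29.0 and 28.5 CPM at 0 h, 33.2, 34.3 and 39.0 CPM at 12 h and 39.9, 41.7 and 42.5 CPM at 24 h. Each time point lay above the one before, and the first library at 0 h was the lowest. The change was 1.32-fold (log2 0.40 ± 0.079 SE, adjusted p = 0.00138) at 12 h and 1.54-fold (log2 0.62 ± 0.078 SE, adjusted p = 2.79e-05) at 24 h. Zwilch changed by log2 0.38 (adjusted p = 0.0141) and log2 0.50 (adjusted p = 0.00319). Zw10, which also serves vesicle transport between the Golgi apparatus and the endoplasmic reticulum, is ENSMUSG00000032264.9, chr9:49055613-49078775. Its level was 18.7, 18.3 and 18.9 CPM at 0 h, 19.7, 21.5 and 19.9 CPM at 12 h and 19.4, 19.4 and 19.0 CPM at 24 h. The values with NRG1 lay narrowly above those at 0 h, and neither difference passed, with 1.09-fold (log2 0.13 ± 0.061 SE, adjusted p = 0.134) at 12 h and 1.03-fold (log2 0.05 ± 0.061 SE, adjusted p = 0.653) at 24 h. Cenpe, the kinesin that carries chromosomes to the spindle equator, changed by log2 0.28 (adjusted p = 0.0180) and log2 0.55 (adjusted p = 0.000118).

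**Figure D2:**
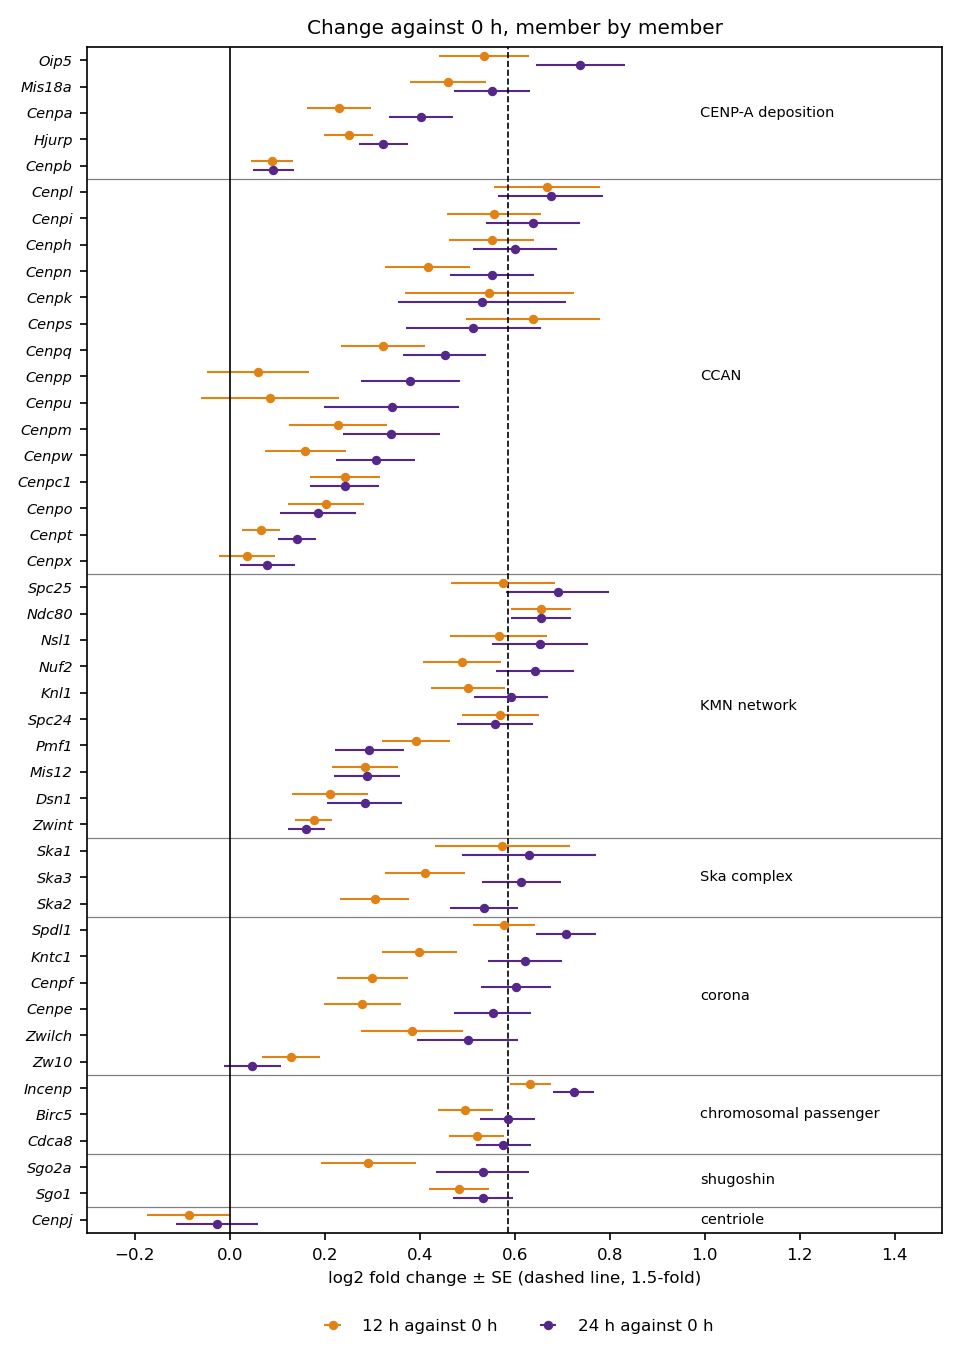
Points give the log2 fold change against 0 h at 12 h (orange) and 24 h (purple) with bars of 1 SE, with 1 row per gene grouped by role, and a dashed line at 1.5-fold. Of the 45 genes, 44 lie to the right of 0 at each time, and many lie close to the dashed line at 24 h.

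The 3 genes of the chromosomal passenger complex, which corrects faulty attachments from the inner centromere, rose at both times. Incenp, the scaffold that carries the kinase Aurora B, is ENSMUSG00000024660.9, chr19:9872296-9899551. Its level was 74.99, 83.6 and 82.9 CPM at 0 h, 122, 127 and 126 CPM at 12 h and 136, 133 and 131 CPM at 24 h. The spread within each time point was small, and the 3 time points did not overlap. The change was 1.55-fold (log2 0.63 ± 0.043 SE, adjusted p = 1.44e-07) at 12 h and 1.65-fold (log2 0.72 ± 0.043 SE, adjusted p = 3.21e-08) at 24 h, the smallest adjusted p of the 45 genes at both times. Cdca8, which encodes Borealin, is ENSMUSG00000028873.16, chr4:124918465-124939311. Its level was 26.9, 30.3 and 29.0 CPM at 0 h, 39.9, 44.2 and 39.9 CPM at 12 h and 44.4, 41.2 and 43.1 CPM at 24 h. Both later times lay above 0 h, with 1.43-fold (log2 0.52 ± 0.058 SE, adjusted p = 8.91e-06) at 12 h and 1.49-fold (log2 0.58 ± 0.058 SE, adjusted p = 3.27e-06) at 24 h. Birc5, which encodes Survivin, is ENSMUSG00000017716.15, chr11:117849251-117855743. Its level was 28.2, 30.9 and 30.8 CPM at 0 h, 41.7, 41.8 and 43.5 CPM at 12 h and 47.0, 41.2 and 46.8 CPM at 24 h. Its 24 h libraries overlapped those at 12 h and lay above 0 h. The change was 1.41-fold (log2 0.50 ± 0.058 SE, adjusted p = 1.42e-05) at 12 h and log2 0.59 (adjusted p = 2.83e-06) at 24 h, so that Birc5 lay just inside the 1.5-fold threshold at 24 h and Cdca8 just outside it.

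The shugoshins protect cohesin at the centromere until sister chromatids part. Sgo1 changed by log2 0.48 (adjusted p = 3.73e-05) at 12 h and log2 0.53 (adjusted p = 1.70e-05) at 24 h, and Sgo2a by log2 0.29 (adjusted p = 0.0412) and log2 0.53 (adjusted p = 0.00104). Of the exonic bases of Sgo2a, 35.0% overlap Kctd18 on the opposite strand. Cenpj, the centriole gene, was the only one of the 45 with an estimate below 0 at both times, at a log2 fold change of -0.09 (adjusted p = 0.515) at 12 h and -0.03 (adjusted p = 0.877) at 24 h, and it did not pass.

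**Figure D3:**
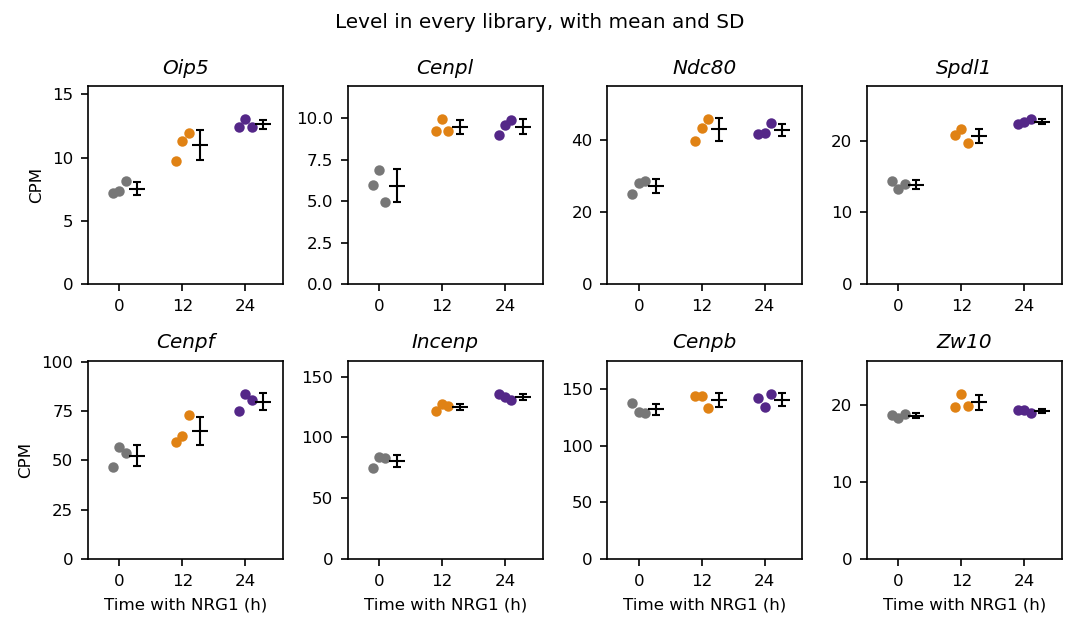
Each panel gives the level of 1 gene in CPM against time with NRG1, with 1 point per library and bars for the mean and SD of 3 libraries, on axes that start at 0. Oip5, Cenpl, Ndc80, Spdl1, Cenpf and Incenp lie higher at 12 and 24 h than at 0 h without overlap, whereas Cenpb overlaps and Zw10 stays between 18.3 and 21.5 CPM throughout.

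Inner centromere and outer kinetochore genes were then set side by side. At 12 h, 12 of 20 inner genes passed and 2 were called, with a median log2 fold change of 0.25, whereas 17 of 19 outer genes passed and 1 was called, with a median of 0.40. At 24 h, 16 of 20 inner genes passed and 4 were called, with a median of 0.39, and 18 of 19 outer genes passed and 10 were called, with a median of 0.59. The outer median was the higher at both times, but the groups overlapped across nearly their whole range, from 0.08 to 0.74 for inner and from 0.05 to 0.71 for outer genes at 24 h. As the mean log2 CPM of its genes minus that at 0 h, the inner group stood at 0.28, 0.38 and 0.31 in the 3 libraries at 12 h and the outer group at 0.37, 0.44 and 0.44. At 24 h the inner group stood at 0.40, 0.36 and 0.45 and the outer group at 0.48, 0.53 and 0.52. The outer value was the higher in each of these 6 libraries, and in the 3 libraries at 0 h it spread from -0.10 to 0.08, against -0.07 to 0.05 for the inner group. The lists were chosen by name and the difference between them was not tested. The chromosomal passenger genes and the shugoshins, which also act at the centromere, were counted on neither side. Their median log2 fold changes at 12 and 24 h were 0.52 and 0.59 (passenger) and 0.39 and 0.53 (shugoshins). Counting them as inner would raise the inner medians, so the gap depends on this grouping, and the other grouping was not computed. Genes with small changes on the inner side included Cenpb, Cenpx and Cenpt, which were among the highest of the 45 at 0 h per length, at 27.0, 20.7 and 19.0 RPKM (CPM divided by the exonic length in kilobases). On the outer side Zwint, at 23.1 RPKM, was the highest. Incenp, at 18.6 RPKM at 0 h and 30.8 RPKM at 24 h, was the exception among these abundant transcripts, with a fold of 1.65. Small changes were also seen at lower levels, with log2 fold changes at 24 h of 0.05 in Zw10, 0.19 in Cenpo and -0.03 in Cenpj. These genes lay at 4.87, 1.62 and 2.07 RPKM at 0 h, and a relation between level and change was not tested. The lowest levels per length at 0 h were those of Cenpk (0.385 RPKM), Sgo2a (0.980 RPKM), Cenpl (1.04 RPKM), Nsl1 (1.12 RPKM) and Cenpu (1.18 RPKM).

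**Figure D4:**
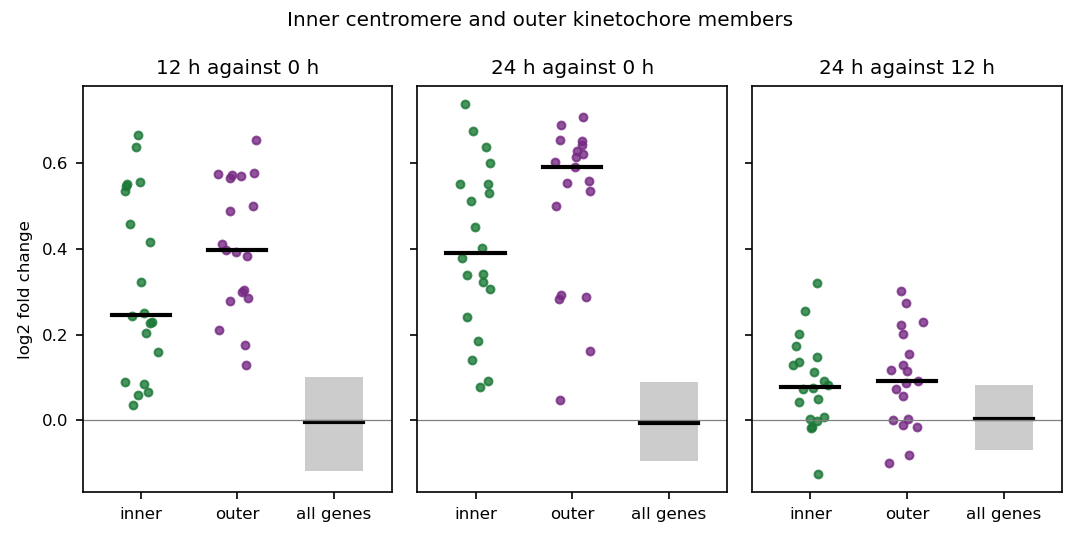
Points give the log2 fold change of each inner (green, 20) and outer (purple, 19) gene in the 3 comparisons, lines give medians, and the grey box spans the middle 50% of all 11373 genes tested. The outer median lies above the inner one against 0 h, at 0.40 and 0.25 for 12 h and at 0.59 and 0.39 for 24 h, and both lie near 0.1 between 12 and 24 h.

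Between 12 and 24 h, little further change was detected. Cenpf alone of the 45 genes passed, against 1.97% of all genes tested that passed upwards and 3.06% that passed downwards, at 1.23-fold (log2 0.30 ± 0.073 SE, adjusted p = 0.0249). Its values at 24 h all lay above those at 12 h, as did those of 12 of the 45 genes, against 11.4% of all genes. It no longer passed without the first or the second library at 12 h, or without the second or the third at 24 h. By edgeR 0 genes were called with the 1.5-fold threshold, against 0.202% of all genes called upwards, and by DESeq2 0 as well. An unadjusted p below 0.05 was found in 11 of the 45 genes, against 2290 of all 11373 genes tested. The estimate was above 0 in 37 of 45 genes, against 50.9% of all genes, with a median of 0.09 beside 0.0023 over all genes. By role, the median was 0.04 in the KMN network, 0.08 in the CCAN, 0.18 in the corona and 0.20 in the Ska complex. Cenpe (0.27, adjusted p = 0.0573) and Ska2 (0.23, adjusted p = 0.0668) came closest to Cenpf. Differences between the roles were not tested.

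Other genes that work at the kinetochore were followed in a list of 21 partners, such as checkpoint kinases and microtubule depolymerases. Of these, 13 rose at 12 h and 14 at 24 h, 0 fell, 2 and 4 were called, and the median log2 fold change was 0.27 and 0.46. Over all genes tested, 13.6% passed upwards at 12 h and 9.67% at 24 h, and 1.34% and 1.68% were called upwards. Aurkb, the kinase of the passenger complex, had the largest change of the list at 24 h, with 31.2, 37.9 and 34.5 CPM at 0 h, 53.3, 57.8 and 53.8 CPM at 12 h and 57.7, 52.7 and 58.6 CPM at 24 h. Its values at both times lay well above 0 h, with 1.59-fold (log2 0.66 ± 0.064 SE, adjusted p = 2.33e-06) at 12 h and 1.63-fold (log2 0.70 ± 0.064 SE, adjusted p = 1.24e-06) at 24 h, close to the estimates of Incenp. Bub1, the checkpoint kinase that docks on Knl1, changed by log2 0.58 (adjusted p = 1.13e-05) and log2 0.62 (adjusted p = 7.61e-06). Clasp1, a microtubule-stabilizing protein with roles outside mitosis, had the lowest estimate of the list at 24 h, at -0.01 (adjusted p = 0.891).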

How the data were processed

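Total RNA from 9 cultures was sequenced as paired-end reads from mRNA libraries. The authors trimmed reads with Cutadapt, aligned them with STAR to the mouse genome GRCm38 with a GENCODE annotation, and deposited raw counts per gene from featureCounts, with no normalization. Use of strand and treatment of multi-mapping reads were not stated. The deposited table held 0 columns of other samples and no fold changes.

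Counts were filtered with filterByExpr (11373 of 15552 genes kept), scaled by TMM and fitted over all 9 libraries in edgeR 4.0.16 under R 4.3.3 (glmQLFit, 6 residual degrees of freedom). Time points were compared with the quasi-likelihood F-test and p-values adjusted by the Benjamini-Hochberg method over all genes tested. A gene passed at an adjusted p of at most 0.05, and was called when its fold was also at least 1.5, the thresholds of the study. The SE of a log2 fold change was derived by dividing it by the root of its F value. Log2 CPM used a prior count of 2. RPKM used the union of exons of the gene annotation on GRCm38, in which all 45 genes had the start and end given in the deposited table. DESeq2 1.42.0, other scalings, no filter and single libraries left out were tried as alternatives. The procedure was tested on simulated data.

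The 45 genes, their roles, the lists of kinetochore partners, replication genes and cohesin and condensin genes, and the cell type markers were chosen with earlier results of these data known. A single one of the epithelial markers is not reported here. Values in every library were given for genes called in any comparison and, in roles of 3 or more genes, for the highest and lowest log2 fold change at 24 h. Of the partners, Aurkb, Bub1 and the highest and lowest log2 fold change at 24 h were named. Sequences are from RefSeq.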

Additional observations from a re-analysis of the deposited data

Results flagged for a closer look

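Cenpf was singled out because it differed between 12 and 24 h of NRG1 as well as between 0 h and both times, with a log2 fold change of 0.30 between 12 and 24 h (edgeR quasi-likelihood test, adjusted p = 0.0249), higher in 3 of 3 libraries at 24 h than in any at 12 h. Cenpf was 1 gene of 45 that passed there, while 1.97% of all genes tested passed upwards. A share of 11.4% of all genes likewise lay higher at 24 h without overlap. Cenpf passed under 12 of 16 other settings. With 3 libraries per time point, single libraries that stand apart were not searched for by a rule.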

How the results depend on the processing

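Among the genes named with values in every library, 733 comparisons with 0 h under other settings kept their side of the adjusted p threshold. Of the others, 1 passed newly and 2 no longer passed, and 0 changes that passed reversed. The log2 fold change of Cenpx at 12 h, which did not pass, went from 0.04 to -0.0002 without the second library at 12 h. The 1.5-fold threshold was not part of this count. Without the first library at 0 h, 10 of these genes were no longer called at 24 h and 0 were newly called. The test with changes smaller than 1.5-fold as its null (glmTreat) called 0 of the 45 genes at 12 h and 0 at 24 h. Over all genes tested, this test called 4 at 12 h and 6 at 24 h. Between 12 and 24 h, Cenpf no longer passed under 4 settings, while Cenpe passed under 7, Kntc1 under 4 and Cenpa under 1. Of the 45 genes, 1 passed there in the reported fit, 2 with total counts and 2 with upper-quartile scaling. With only the 2 time points fitted 2 passed, and without a filter on low counts 4. With the replicate block, 3 passed there (Cenpf, Cenpe and Kntc1), while Birc5 was no longer called and Cenpk no longer passed at 24 h. Deviations of libraries with the same number correlated from -0.0744 to 0.131, and those of other pairs from -0.125 to 0.120. These ranges overlap, so a pairing of samples by number was neither shown nor excluded. With 1 library left out, the genes called ranged from 4 to 12 at 12 h and from 6 to 22 at 24 h (lowest without the first and highest without the third library at 0 h), and were 0 between 12 and 24 h. Genes that passed ranged from 27 to 34 at 12 h, from 33 to 39 at 24 h, and from 0 to 3 between these times. In the comparison of all 3 time points at once 39 genes passed, and 33 to 40 with 1 library left out. Inner medians ranged from 0.24 to 0.31 at 12 h and from 0.37 to 0.43 at 24 h, and outer medians from 0.35 to 0.46 and from 0.53 to 0.66. Apart from which libraries or genes entered a fit, the cause of these shifts was not tested. Cenpk, Cenpu, Ska1 and Cenps, with few counts, had the largest SE.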

Other observations

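Among 24 genes of the replication helicase and fork, which act in S phase before kinetochores are built, 23 rose and 1 fell at 12 h, and 22 rose and 0 fell at 24 h (edgeR, adjusted p of at most 0.05). Their median log2 fold change was 0.53 at 12 h and 0.50 at 24 h, with 7 and 5 genes called. Over all genes tested, 13.6% passed upwards and 11.9% downwards at 12 h, and 9.67% and 7.76% at 24 h. The share called upwards was 1.34% and 1.68%. Between 12 and 24 h the median of these 24 genes was -0.01 and 0 passed, against 1.97% of all genes that passed upwards and 3.06% downwards. An unadjusted p below 0.05 was found in 3 of the 24, against 2290 of all 11373 genes tested. Of 17 cohesin and condensin genes, which hold and compact chromatids, 10 rose and 1 fell at 12 h and 9 rose and 0 fell at 24 h, with medians of 0.17 and 0.13. Of these, 2 and 3 were called, and 0 passed between 12 and 24 h, beside the same shares over all genes. As the mean log2 CPM of its genes minus that at 0 h, the replication list was also lowest in the first library at 0 h, at -0.09, beside 0.01 and 0.08 in the other two.

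Among the kinetochore partners, Knstrn (small kinastrin, a spindle and kinetochore protein) did not pass at 12 h (log2 fold change -0.01, adjusted p = 0.937) and passed at 24 h (0.25, adjusted p = 0.00144) and between 12 and 24 h (0.26, adjusted p = 0.00523). Kif2c, a microtubule depolymerase of the centromere, passed between 12 and 24 h by 0.18 (adjusted p = 0.0487). Both genes were chosen after their values had been seen.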
